A study of Mus musculus with 20 samples.

Results

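The comparison described here set 4 hypothalamus libraries of mice on the glycation-lowering diet Gly-Low (the acute Gly-Low group) against 4 libraries of young control mice. These are 8 of the 20 libraries of the series, taken by their labels. Young control was taken as the reference because, in earlier results of these data, it held less pituitary RNA on average than the acute controls and a mitochondrial share nearer to that of acute Gly-Low, so those 2 shares are given below as a description. All 8 came from male C57BL/6J mice, a standard inbred strain. The acute Gly-Low mice were 4 months old and had eaten Gly-Low for 1 week, and the young control mice were 3 months old and had eaten a control diet for 1 week. In the design text the young controls serve the ageing arm of the study, and the control group of the acute arm itself (acute control, 5 libraries of mice aged 4 months, 1 week on the control diet) serves below only to show how a gene reads against another reference. Diet, age and study arm differ together between the groups compared and cannot be told apart. Nothing in the labels ties a library to an animal of its own, so p-values measure only the spread between these libraries, which may be technical.

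In glycation, sugars and their reactive by-products, methylglyoxal among them, bind proteins without the help of an enzyme. The hypothalamus governs feeding, body temperature, stress hormones and the daily clock. In its arcuate nucleus, neurons that make agouti-related peptide and neuropeptide Y drive feeding and carry the receptor of the stomach hormone ghrelin, while neurons that make pro-opiomelanocortin and the cocaine- and amphetamine-regulated transcript restrain it. Both act on melanocortin receptors of downstream neurons. The series title names ghrelin signalling, so those genes are described first among the pathways.

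Levels below are CPM, counts relative to library size, scaled by TMM, a factor per library that limits the effect of a few abundant genes, and differences are log2 fold changes with their standard error (SE). A gene is said to have risen or fallen in acute Gly-Low only where the adjusted p was under 0.05. Total counts ran from 15848372 to 24557277 in the 8 libraries. The mitochondrial share of counts averaged 12.4% ± 4.81 (SD, n = 4) for young control, 20.9% ± 2.73 (SD, n = 4) for acute Gly-Low and 6.98% ± 1.46 (SD, n = 5) for acute control. The share of cytosolic ribosomal protein genes was 3.23% ± 0.927 (SD, n = 4) for young control against 6.41% ± 1.4 (SD, n = 4) for acute Gly-Low (exact permutation test, two-sided, p = 0.0286), and that of haemoglobin genes 0.0157% ± 0.0141 (SD, n = 4) against 0.0677% ± 0.0365 (SD, n = 4) (exact p = 0.0286). In the last 2 measures and in the share of the 10 most abundant genes the groups did not overlap. The share of the 10 most abundant genes differed by 8.77 percentage points, but by 0.859 among counts outside the mitochondrial genome. It thus mostly repeats the mitochondrial share, by which the reference was chosen. The smallest p that 4 against 4 libraries allow is 0.0286, and the 3 of 7 measures that reached it had an adjusted p of 0.0667, so none passed. The length slope is the change, with each doubling of transcript length, of a library's log2 CPM relative to the mean of all 20 libraries. It averaged −0.07 ± 0.21 (SD, n = 4) for young control against −0.31 ± 0.09 (SD, n = 4) for acute Gly-Low (exact p = 0.0571). Young control 2 was the nearest to acute Gly-Low, with a mitochondrial share of 17.2% and a slope of −0.27, and young control 4 the farthest, with 5.73% and 0.22. The pituitary genes Gh, Prl, Pomc and Cga made up 0.0125% ± 0.00455 (SD, n = 4) of young control counts and 0.0121% ± 0.00814 (SD, n = 4) of acute Gly-Low counts, against 2.21% ± 3.04 (SD, n = 5) for acute control. Acute controls 2 and 5 carried that mean, with 6.97% and 3.55%, while acute control 1, with 0.00406%, was below every young control. Pituitary transcripts were thus low in both groups but not missing, since Gh, the growth hormone gene, had 87.7, 38.2, 16.6 and 27.3 CPM in young controls 1 to 4. The markers of the tissue were present, among them Pmch, Hcrt, Oxt and Avp.

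**Figure D1:**
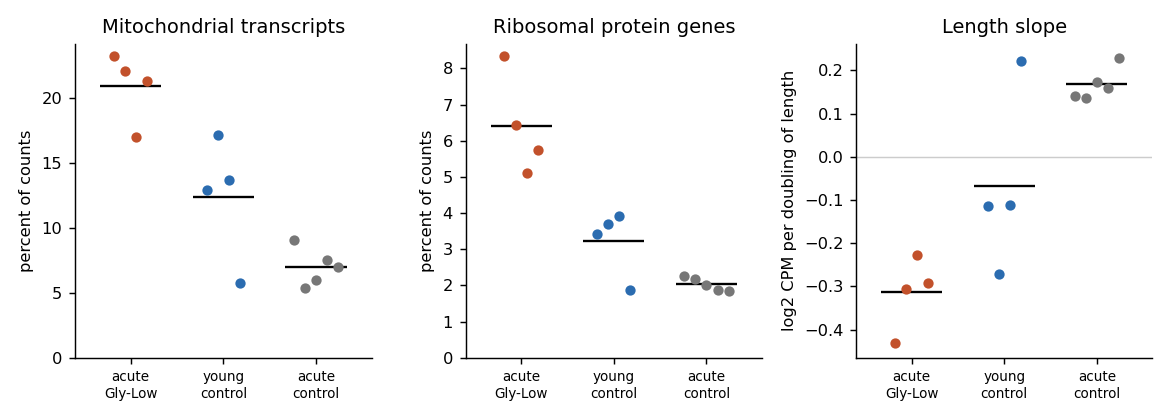
Mitochondrial share, ribosomal protein share (both in percent of counts) and length slope of each library of acute Gly-Low, young control and acute control. The slope is log2 CPM, relative to the mean of all 20 libraries, per doubling of transcript length. A bar marks the mean of each group. The acute Gly-Low libraries hold mitochondrial shares of 17% to 23.3%, and young control 2 lies at 17.2%.

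Of 16701 genes tested, 4896 (29.3%) differed, 2229 (13.3%) higher and 2667 (16%) lower in acute Gly-Low. The groups did not overlap for 5560 genes (33.3%). Without young controls 2 and 4, which held the extremes of their group in slope and mitochondrial share, 5907 genes (33.4%) differed, 2839 higher and 3068 lower. Short transcripts were more often higher. Of 5 equal bins of length, the one with the shortest transcripts had the most genes higher: in it 24% rose and 3.62% fell, and in the one with the longest 5.49% rose and 27.6% fell. Spearman's rho of fold change and transcript length was −0.41, a description across genes, which are not independent replicates. An offset that removes each library's trend with length levelled those shares, to 14.1% and 13% in the shortest bin and 12.9% and 13.9% in the longest. With it 4771 genes (28.6%) differed, 13.8% higher and 14.8% lower, and 3783 of them were among the 4896 with the same direction. A second alternative, called the slope covariate below, put the library's length slope into the fit, over the 8 or over all 20 libraries. Of the 141 genes described below as risen or fallen, the call was lost for 7 with the offset, 13 with the slope covariate over 8 and 20 over 20 libraries. The log2 fold change moved by over 1.5 times for 21, 50 and 48 of them, and values are given below where a call was lost.

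**Figure D2:**
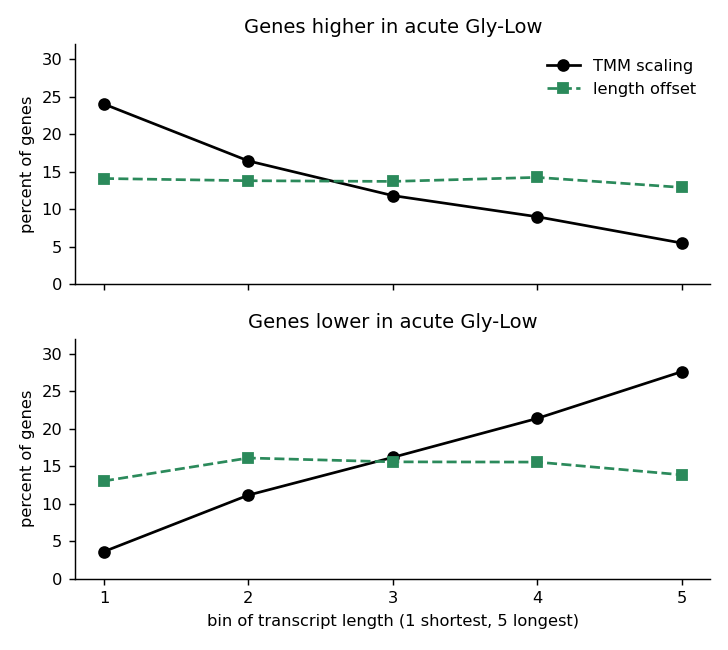
Percent of genes that rose (upper panel) and fell (lower panel) in acute Gly-Low in 5 bins of transcript length, from the shortest to the longest, with the TMM scaling and with the length offset. The share that rose falls from 24% in the shortest bin to 5.49% in the longest without the offset.

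The protein-coding gene that rose with the smallest p was Rbm3 (ENSMUSG00000031167, chromosome X, 8138975 to 8145880), an RNA-binding protein induced by mild cold. It had 321, 329, 290.0 and 308 CPM in acute Gly-Low 1 to 4 and 63.6, 42.9, 47.8 and 26.6 CPM in young controls 1 to 4. The groups lay far apart, with a log2 fold change of 2.76 ± 0.24 (adjusted p = 2.06e-04). Against acute control (mean 69.98 ± 6.99 CPM, n = 5) it was 2.16 ± 0.22. Its relative Cirbp, also cold-inducible, had 101 ± 12.9 and 66.1 ± 15.4 CPM and did not pass (0.57 ± 0.21, adjusted p = 0.0599). Without young control 2 its adjusted p was 0.0133, and with DESeq2 or limma it passed. It was at 0.18 and 0.40 with the slope covariate over 8 and 20 libraries (adjusted p = 0.444 and 0.118). Of 7 cold-inducible RNA-binding proteins and splicing partners, 1 rose, Rbm3, and 2 fell.

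The other 7 genes that rose with the smallest p were Rida, Ube2v2, Mocs2, Dio2, Dbndd2, Kif5b and Immp1l. Rida, a deaminase that clears reactive enamines and imines, went from 49.3 ± 10.6 to 232 ± 41.6 CPM (SD, n = 4 each; 2.21 ± 0.21). Ube2v2, a ubiquitin-conjugating enzyme variant, was at 1.65 ± 0.16 and Mocs2, which makes the molybdenum cofactor, at 1.34 ± 0.14. Dio2, the deiodinase that activates thyroid hormone in tanycytes and astrocytes, had 45.6, 38.3, 49.2 and 53.2 CPM in acute Gly-Low and 14.8, 14.4, 11.7 and 14.1 CPM in young control (1.74 ± 0.18, adjusted p = 2.92e-04). Kif5b, a kinesin motor with a long transcript, went from 289.7 ± 44.8 to 904 ± 136 CPM (1.63 ± 0.17), and the mitochondrial peptidase Immp1l from 19 ± 2.87 to 64.8 ± 13.2 CPM (1.75 ± 0.19). Dbndd2 was at 1.36 ± 0.14. Against acute control these 7 genes were at 1.01 ± 0.16 (Kif5b) to 2.41 ± 0.21 (Rida), the same direction. Among the largest rises of genes of at least 5 CPM were those of the globin genes Hbb-bt (3.24 ± 0.54) and Hbb-bs (2.7 ± 0.57), near-identical copies that could share reads, of the class I histocompatibility gene H2-Q1 (3.23 ± 0.63), whose reads could be shared with its family, and of Fabp7, the fatty acid carrier of astrocytes and tanycytes, from 27.4 ± 9.34 to 181 ± 88.3 CPM (2.68 ± 0.38).

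Among the genes that fell with the smallest p were pumps, transcription cofactors and membrane proteins. Atp1b2 (ENSMUSG00000041329, chromosome 11, 69599736 to 69605942), the glial β subunit of the sodium-potassium pump, had 63.1, 67.4, 70.3 and 52.1 CPM in acute Gly-Low 1 to 4 and 303, 242, 299.9 and 324 CPM in young controls 1 to 4. Each acute Gly-Low library was below every young control, and the log2 fold change was −2.22 ± 0.15 (adjusted p = 1.62e-04; −2.0 ± 0.26 against acute control). Arhgap36, an X-linked regulator of hedgehog signalling and of protein kinase A, had 40.8, 38.5, 35.4 and 26.4 CPM against 207, 215, 196 and 186 CPM (−2.53 ± 0.17; −2.35 ± 0.13 against acute control). The others were Aqr (−2.04 ± 0.15), a helicase of the spliceosome, Tmem130 (−2.29 ± 0.17), the ubiquitin protease Usp11 (−1.92 ± 0.15), the Mediator subunit Med23 (−2.19 ± 0.17), the ectonucleotidase Entpd3 (−2.34 ± 0.18) and the endothelial and epithelial receptor Adgrf5 (−2.34 ± 0.19). Among the largest falls were those of the glutamate receptor Grm2 (−3.31 ± 0.51), the axonal adhesion molecule L1cam (−3.17 ± 0.56), Susd2 (−2.82 ± 0.30), Hapln4, a link protein of perineuronal nets (−2.66 ± 0.38), and Shisa7, a partner of GABA receptors (−2.61 ± 0.50). Against acute control these 13 genes were at −1.81 ± 0.17 (Usp11) to −3.34 ± 0.59 (L1cam), the same direction. The largest falls were smaller with the slope covariate over 8 and 20 libraries. Grm2 was then at −1.95 and −1.82 and L1cam at −1.43 and −1.3. Susd2, Hapln4 and Shisa7 also moved nearer to 0, and these genes kept their calls.

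**Figure D3:**
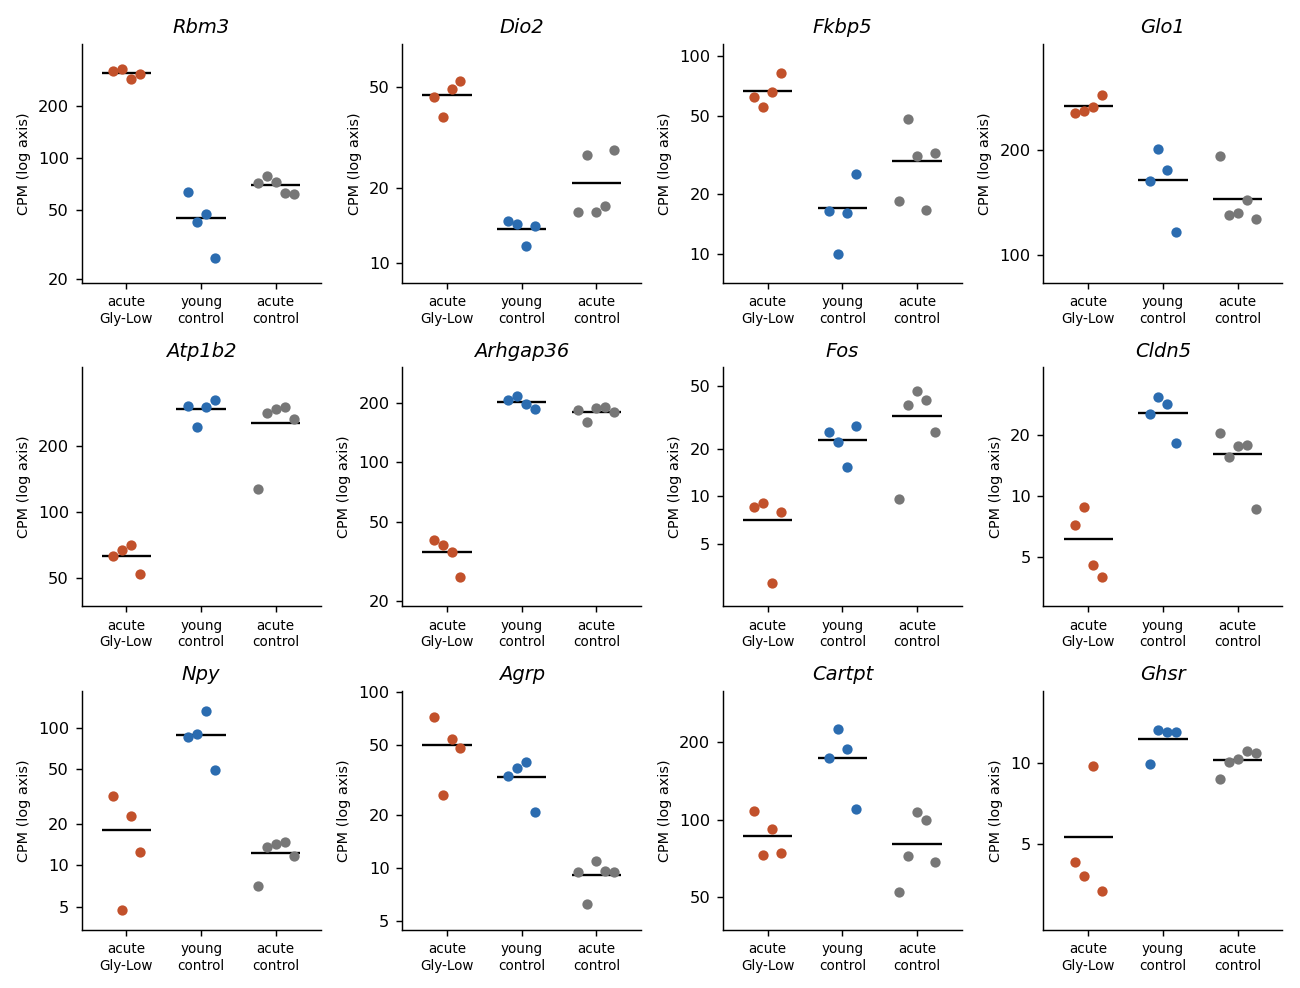
CPM (log axis) of 12 genes in each library of acute Gly-Low, young control and acute control, with a bar at the mean of each group. Rbm3 and Fkbp5 are higher and Atp1b2 and Fos lower in acute Gly-Low than in every young control, while Npy and Cartpt are high in young control alone and Agrp is low in acute control alone.

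The feeding peptides of the arcuate nucleus read differently against the 2 control groups. Npy (ENSMUSG00000029819, chromosome 6, 49822710 to 49829507), neuropeptide Y, had 32.1, 4.75, 22.8 and 12.4 CPM in acute Gly-Low 1 to 4 and 86, 89.6, 133 and 49.5 CPM in young controls 1 to 4. All acute Gly-Low libraries were below all young controls (−2.33 ± 0.50, adjusted p = 0.00657). The acute controls, with 7.04, 13.6, 14.3, 14.7 and 11.7 CPM, were as low as acute Gly-Low, and against them the difference was 0.55 ± 0.42. Agrp (ENSMUSG00000005705, chromosome 8, 105566698 to 105637393), made in the same neurons, had 72.7, 26.1, 54.1 and 48.4 CPM in acute Gly-Low and 33.5, 37.3, 40.01 and 21 CPM in young control. These groups overlapped and Agrp did not pass (0.59 ± 0.31, adjusted p = 0.174). The acute controls were lower than both, with 9.56, 6.29, 11.1, 9.64 and 9.5 CPM, and against them acute Gly-Low was at 2.45 ± 0.31. The annotation places 2 other genes on the same strand and 5 on the opposite strand over the Agrp locus, and the counting used no strand, so its counts may hold reads of a neighbour. The acute controls differed from the young controls in both genes, by −2.87 ± 0.43 for Npy (adjusted p = 0.0116) and −1.84 ± 0.31 for Agrp (adjusted p = 0.0116), in a fit whose calls were lost without young control 2 or 3, as described further on.

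Of 14 tested genes of these neurons and their inputs, 10 fell and 0 rose, with a median log2 fold change of −1.28 beside −0.05 over all genes tested. Ghsr, the ghrelin receptor, had 4.26, 3.77, 9.77 and 3.33 CPM in acute Gly-Low and 9.97, 13.4, 13.1 and 13.1 CPM in young control. It fell (−1.25 ± 0.35, adjusted p = 0.0227) and was at −0.95 ± 0.25 against acute control, and with the length offset it was at −0.99 (adjusted p = 0.0507). Acute Gly-Low 3 was the highest of its group and stood near the controls, and without acute Gly-Low 1, 2 or 4 its adjusted p was 0.0511 to 0.0534. The neuropeptide Y receptors Npy2r (−1.67 ± 0.20), Npy5r (−1.38 ± 0.27) and Npy1r (−1.03 ± 0.21) fell, as did Bsx (−1.46 ± 0.28), a homeobox factor of these neurons, and Gad1 (−1.6 ± 0.16), which makes GABA. Lepr, the leptin receptor, had 6.3 ± 1.61 and 8.57 ± 2.37 CPM and did not pass (−0.46 ± 0.28, adjusted p = 0.241). Ghrl, the ghrelin gene itself, had 0 to 16 raw counts in acute Gly-Low and 3 to 28 in young control and was below the filter on low counts.

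Of 15 melanocortin genes, 9 fell and 0 rose (median −1.03). Cartpt, which restrains feeding, had 108, 72.9, 92.1 and 74.1 CPM in acute Gly-Low and 173, 225, 188 and 109.7 CPM in young control, with no overlap (−1.03 ± 0.24, adjusted p = 0.00953). The acute controls had a mean of 80.2 ± 22.8 CPM, close to acute Gly-Low. Pomc had 27.1, 71, 35.2 and 27.9 CPM in acute Gly-Low and 84.1, 57.1, 64.2 and 82.5 CPM in young control. The groups overlapped and the difference fell just short of the threshold (−0.85 ± 0.29, adjusted p = 0.0509). With the length offset Pomc was at −1.35 (adjusted p = 0.0153), and without acute Gly-Low 2 or young control 2 or 4 its adjusted p was 0.00331 to 0.0459. It was at −0.65 and −0.76 with the slope covariate over 8 and 20 libraries (adjusted p = 0.175 and 0.568). Acute Gly-Low 2 was the library of its group that lay among the controls. Against acute control Pomc was at −4.41 ± 0.88, beside the pituitary transcripts of those libraries, whose part in that value was not tested. Of the receptors of these peptides, Mc3r went from 13.4 ± 1.04 to 3.16 ± 0.742 CPM (−2.1 ± 0.25) and Mc4r from 6.01 ± 0.443 to 3.53 ± 0.328 CPM (−0.79 ± 0.25, adjusted p = 0.035; −0.72 and adjusted p = 0.051 with the length offset). The peptide-processing enzymes Pcsk2 (−1.08 ± 0.15) and Pam (−1.13 ± 0.16) fell too, and Nkx2-1, a transcription factor of the ventral hypothalamus, was at −2.32 ± 0.48, but at −1.1 with the slope covariate over 20 libraries (adjusted p = 0.112).

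Of 13 tested genes of the peptide neurons of the lateral hypothalamus, 6 fell and 1 rose (median −0.93). The member that rose was Pmch, which encodes the appetite peptide MCH. It had 711, 488, 600.1 and 731 CPM in acute Gly-Low and 371, 439.8, 307 and 189 CPM in young control (0.92 ± 0.27, adjusted p = 0.0271). It was at 1.72 ± 0.34 against acute control, and at 0.38 (adjusted p = 0.108) with the length offset and 0.38 and 0.36 with the slope covariate over 8 and 20 libraries (adjusted p = 0.145 and 0.432), and without acute Gly-Low 1 or 4 or young control 3 its adjusted p was 0.0679 to 0.0786. All 4 acute Gly-Low libraries were above all young controls. Hcrt, the orexin precursor, had 122 ± 61.6 and 236 ± 73.3 CPM and did not pass (−0.99 ± 0.35, adjusted p = 0.0583), whereas with the offset it was at −1.67 (adjusted p = 0.0012) and without acute Gly-Low 1 or young control 4 its adjusted p was 0.00918 to 0.0112.

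Of 16 tested genes of the list of releasing hormones and their receptors, 7 fell and 1 rose (median −0.78). Tac2, neurokinin B, went from 52.2 ± 18.2 to 15.9 ± 4.43 CPM (−1.75 ± 0.31) and Pdyn, prodynorphin, from 113 ± 10.8 to 44.9 ± 10.6 CPM (−1.36 ± 0.19). Th, the enzyme that makes dopamine, was at −1.18 ± 0.21. Against acute control they were at −0.47 ± 0.29, −0.86 ± 0.15 and −0.93 ± 0.18. Other members read otherwise against acute control. Crh, the releasing hormone of the stress axis, was at −1.16 ± 0.25 against young control and 0.63 ± 0.29 against acute control. Ghrh, which releases growth hormone, was at −0.98 ± 0.29 and 0.92 ± 0.31, Gal, galanin, at −0.76 ± 0.22 and 0.48 ± 0.23, and Sst, somatostatin, at −0.81 ± 0.25 and 0.34 ± 0.27. The fit that compared the control groups lost its calls without young control 2 or 3, as described further on. In it the acute controls were lower than the young controls for each of these 4 genes (adjusted p from 0.0116 to 0.0259). Of their calls against young control, those of Ghrh and Sst were lost with single libraries left out: for Ghrh, without acute Gly-Low 2 or 4 its adjusted p was 0.0501 to 0.0502, and for Sst, without acute Gly-Low 4 or young control 2 its adjusted p was 0.0516 to 0.0604. Vip, a peptide of the suprachiasmatic nucleus, was the member that rose, with 37.1, 45.8, 55.4 and 52.1 CPM against 13.4, 19.3, 20.3 and 7.38 CPM (1.63 ± 0.31; 1.03 ± 0.34 against acute control). Oxt, oxytocin, had 369 ± 153 and 402 ± 162 CPM (−0.16 ± 0.37, adjusted p = 0.764) and Avp, vasopressin, 406 ± 235 and 318 ± 82.5 CPM (0.33 ± 0.35, adjusted p = 0.51), and neither passed. With the length offset Oxt was at −0.80 (adjusted p = 0.0077), and at −1.1 with the slope covariate over 8 libraries (adjusted p = 5.67e-04), and Avp at −0.39 (adjusted p = 0.26).

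**Figure D4:**
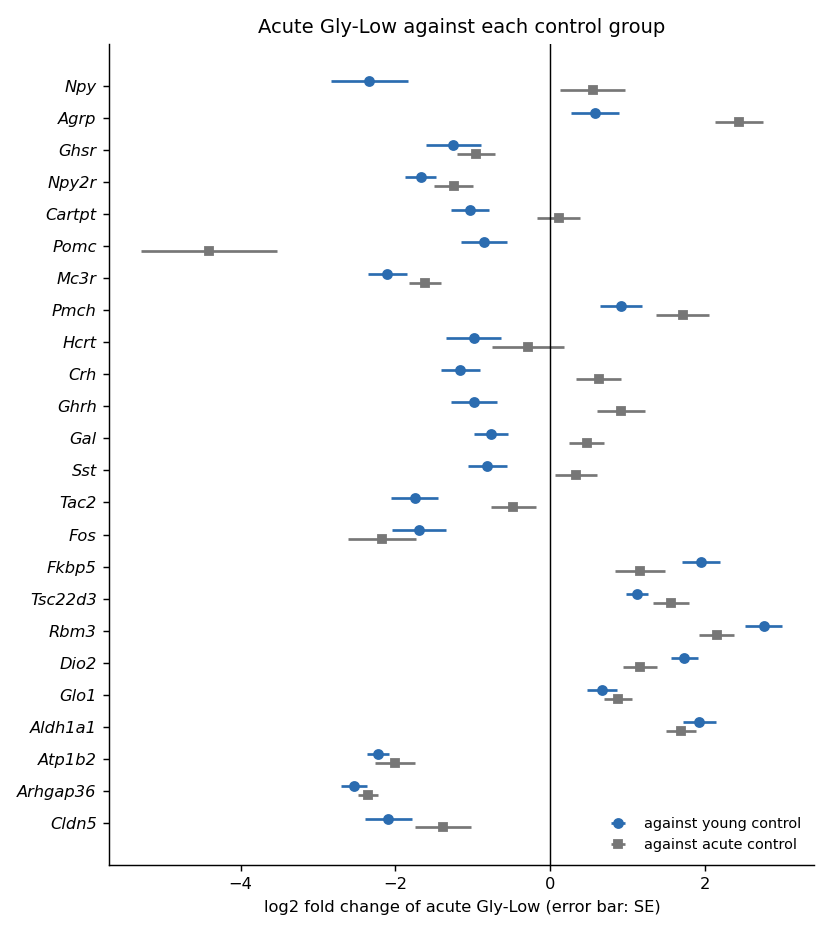
Log2 fold change with its SE of acute Gly-Low against young control and against acute control for 24 genes. Npy, Cartpt, Crh, Ghrh, Gal and Sst lie below 0 against young control and above 0 against acute control, while Rbm3, Fkbp5, Atp1b2, Npy2r and Fos lie on the same side of 0 against both.

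Immediate early genes mark recent neuronal activity. Of 19 tested, 6 fell (31.6%) and 0 rose, with a median of −0.76, beside 16% and 13.3% of all genes. Without young controls 2 and 4, 4 of 20 fell, near the 17.4% of all genes in that fit. With the slope covariate 5 fell over 8 libraries, and 1 fell and 1 rose over 20 (median −0.19). Many of them, and several peptide genes, are known targets of the cAMP-responsive factor CREB, which binds the cAMP response element tgacgtca. For a view of such sites, the 250 bases before the start site of 3 genes that hold the whole element and 2 that hold only its core, TGACG, follow, chosen after their values were seen. They are from RefSeq on GRCm38.p6, 5′ to 3′ along the gene, with matches on either strand in capitals (CGTCA where the core lies on the other strand).
Sst (chr16:23890845-23891094, minus strand): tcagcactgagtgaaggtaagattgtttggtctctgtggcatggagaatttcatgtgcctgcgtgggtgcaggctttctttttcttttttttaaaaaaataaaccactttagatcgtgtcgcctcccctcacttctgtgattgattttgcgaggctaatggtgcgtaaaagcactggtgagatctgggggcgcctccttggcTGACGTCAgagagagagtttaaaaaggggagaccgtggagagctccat
Cartpt (chr13:99900684-99900933, minus strand): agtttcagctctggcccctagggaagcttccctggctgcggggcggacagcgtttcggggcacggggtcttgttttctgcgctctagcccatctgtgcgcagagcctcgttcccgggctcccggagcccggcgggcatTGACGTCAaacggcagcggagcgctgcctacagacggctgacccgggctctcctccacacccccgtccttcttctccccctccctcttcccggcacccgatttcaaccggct
Dusp1 (chr17:26508473-26508722, minus strand): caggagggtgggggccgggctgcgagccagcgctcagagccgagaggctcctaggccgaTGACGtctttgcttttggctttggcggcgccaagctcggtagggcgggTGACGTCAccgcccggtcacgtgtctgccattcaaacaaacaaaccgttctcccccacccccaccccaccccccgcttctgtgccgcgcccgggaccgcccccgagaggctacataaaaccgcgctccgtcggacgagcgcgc
Fos (chr12:85473640-85473889, plus strand): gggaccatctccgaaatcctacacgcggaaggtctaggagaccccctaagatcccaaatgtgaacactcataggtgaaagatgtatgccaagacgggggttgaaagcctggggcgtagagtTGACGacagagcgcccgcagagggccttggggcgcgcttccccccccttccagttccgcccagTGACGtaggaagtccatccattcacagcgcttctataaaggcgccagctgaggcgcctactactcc
Nr4a1 (chr15:101266596-101266845, plus strand): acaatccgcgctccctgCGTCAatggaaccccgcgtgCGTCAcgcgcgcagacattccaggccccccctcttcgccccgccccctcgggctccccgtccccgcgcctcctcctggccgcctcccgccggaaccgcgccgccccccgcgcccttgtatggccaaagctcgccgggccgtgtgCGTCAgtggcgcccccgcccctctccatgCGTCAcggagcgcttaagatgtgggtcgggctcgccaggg
The whole element begins 48, 112 and 143 bases before the start site of Sst, Cartpt and Dusp1. It was in 1.55% of the 32851 promoter windows of that length in the table, and the core, which lies within the whole, in 17.8%. Of the immediate early genes, 16 of 21 had a window, 2 with the whole element and 12 with the core. A match is a run of letters, not evidence of binding.

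These 5 genes fell in acute Gly-Low. Fos had 8.52, 9.07, 2.82 and 7.96 CPM in acute Gly-Low 1 to 4 and 25.3, 22, 15.2 and 27.6 CPM in young controls 1 to 4. The groups did not overlap (−1.69 ± 0.35, adjusted p = 0.00555), and against acute control it was at −2.17 ± 0.44. Nr4a1, an orphan nuclear receptor induced by activity, had 5.96, 4.7, 4.55 and 6.42 CPM against 15, 10.7, 10.8 and 19.6 CPM (−1.39 ± 0.26, adjusted p = 0.00338). Dusp1, a phosphatase of stress-activated kinases, was at −0.76 ± 0.18, Egr1, a zinc finger factor, at −1.33 ± 0.38, and Arc, which acts at synapses, at −1.75 ± 0.58. Nptx2, a secreted pentraxin of active synapses, went from 20.6 ± 12.9 to 4.75 ± 1.17 CPM (−2.11 ± 0.42). Npas4 did not pass (−1.69 ± 0.63, adjusted p = 0.0651), but without young control 3 its adjusted p was 0.037. It was at −0.53 and −0.35 with the slope covariate over 8 and 20 libraries (adjusted p = 0.581 and 0.714). The calls of Arc and Egr1 rested on single libraries: for Arc, without acute Gly-Low 1, 2, 3 or 4 or young control 1 or 4 its adjusted p was 0.0659 to 0.175, and for Egr1, without acute Gly-Low 1, 3 or 4 its adjusted p was 0.0631 to 0.0655. Young control 4 was high in both, and without it Arc was at −1.03 and Egr1 at −0.85. Another alternative brought both nearer to 0, Arc to −0.30 and −0.0234 with the slope covariate over 8 and 20 libraries (adjusted p = 0.722 and 0.98) and Egr1 to −0.60 and −0.31 with the slope covariate over 8 and 20 libraries (adjusted p = 0.259 and 0.726). With that covariate over 20 libraries Fos had an adjusted p of 0.0519, Dusp1 of 0.0686 and Nr4a1 of 0.318. The summed level of the general neuron markers was also lower in acute Gly-Low, at 4117 to 4773 CPM against 5778 to 6794 CPM over 15 genes. Of these markers 6 fell, 0 rose and 9 did not pass (median −0.69). With the slope covariate 6 fell and 2 rose over 8 libraries (median −0.15). Over 20 libraries 6 fell and 3 rose (median −0.16). The part of the neuron markers in the falls of the immediate early genes was not tested.

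The glucocorticoid receptor carries the stress hormone signal. Of 18 tested targets of it, 6 rose and 0 fell, and 12 did not pass (median 0.72). Fkbp5, a chaperone that tunes the receptor, had 62.1, 55.4, 65.5 and 82 CPM in acute Gly-Low and 16.6, 10.04, 16.1 and 25.4 CPM in young control. Every acute Gly-Low library was higher (1.95 ± 0.25, adjusted p = 5.97e-04; 1.17 ± 0.32 against acute control). The annotation places 2 other genes on the same strand and 2 on the opposite strand over this locus. Tsc22d3, the leucine zipper protein GILZ, had 324, 302, 353 and 313 CPM against 129, 157, 158 and 139 CPM (1.13 ± 0.15; 1.56 ± 0.23 against acute control). Sult1a1 (1.99 ± 0.32), a sulfotransferase, Angptl4 (1.31 ± 0.28), an inhibitor of lipoprotein lipase, the kinase Sgk1 (0.98 ± 0.25) and the factor Klf15 (0.91 ± 0.26) rose too. For Sgk1, without acute Gly-Low 1, 2 or 4 or young control 1 or 3 its adjusted p was 0.061 to 0.103, and for Klf15, without acute Gly-Low 1, 2, 3 or 4 or young control 1 or 3 its adjusted p was 0.0878 to 0.156, while the other 4 kept their calls without any 1 library. With the slope covariate over 20 libraries Sgk1 had an adjusted p of 0.205. Sgk1 was at 0.40 ± 0.52 against acute control and Klf15 at 0.68 ± 0.29.

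Of 21 clock genes, 4 fell and 2 rose, shares near those over all genes. Bhlhe40, a repressor of the clock, went from 54.9 ± 7.95 to 21.4 ± 3.34 CPM (−1.38 ± 0.17) and Arntl, an activator, from 29.6 ± 3.77 to 14.4 ± 1.4 CPM (−1.07 ± 0.18). Nr1d1, a repressor that cycles strongly, had 12.2, 10.3, 8.55 and 5.31 CPM in acute Gly-Low and 23.6, 5.95, 24.3 and 32.5 CPM in young control. Young control 2 was as low as acute Gly-Low, so the groups overlapped (−1.24 ± 0.42, adjusted p = 0.0485, and 0.0608 with the length offset), and without acute Gly-Low 1, 2, 3 or 4 or young control 1, 3 or 4 its adjusted p was 0.0632 to 0.118. It was at −0.57 and −0.26 with the slope covariate over 8 and 20 libraries (adjusted p = 0.432 and 0.696). Dbp, the classic output gene, had 53.5 ± 2.62 and 46.1 ± 8.04 CPM and did not pass (0.20 ± 0.15, adjusted p = 0.331). The list's counts moved with single libraries, from 2 that fell without young control 1 (as without young control 3 or acute Gly-Low 1, 2 or 4) to 7 without young control 2. With the slope covariate 0 rose over 8 libraries and 5 over 20.

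Enzymes of glucose breakdown fell more often than they rose. Of 21 glycolysis genes, 14 fell and 0 rose, with a median of −0.91, and with the length offset 14 fell. Pfkp, the platelet-type phosphofructokinase, had 91.5, 103, 95.6 and 85.7 CPM in acute Gly-Low and 255, 279, 222 and 275 CPM in young control, without overlap (−1.48 ± 0.15, adjusted p = 2.62e-04). The neuronal enolase Eno2 was at −1.37 ± 0.15, the isomerase Gpi1 at −1.11 ± 0.14, the neuronal glucose carrier Slc2a3 at −1.23 ± 0.18 and Hk1, the brain hexokinase, at −1.97 ± 0.50. Against acute control these were at −1.41 ± 0.10, −1.32 ± 0.12, −0.94 ± 0.13, −1.17 ± 0.13 and −2.47 ± 0.52. Hk1 was high in young control 4, without which it was at −1.27, and without acute Gly-Low 1 its adjusted p was 0.0514. It was at −0.36 and −0.27 with the slope covariate over 8 and 20 libraries (adjusted p = 0.274 and 0.513). Pkm, pyruvate kinase, was at −0.79 ± 0.16. Pgk1 did not pass (0.40 ± 0.18, adjusted p = 0.122), though without young control 2 its adjusted p was 0.0221. It was at 0.18 and 0.17 with the slope covariate over 8 and 20 libraries (adjusted p = 0.445 and 0.384). Of 20 citric acid cycle genes, 7 rose (35%) and 3 fell (15%), beside 13.3% and 16% of all genes. With the slope covariate over 8 libraries 4 rose and 4 fell. Those that fell were Cs, citrate synthase (−1.22 ± 0.18), Ogdh (−1.15 ± 0.19) and Mdh2 (−0.68 ± 0.18), and those that rose held the succinate dehydrogenase subunits Sdhb (0.86 ± 0.24), Sdhc (0.71 ± 0.18) and Sdhd (0.93 ± 0.19). For Sdhb, without acute Gly-Low 1, 2 or 4 or young control 1 its adjusted p was 0.0542 to 0.0597. Sdhb was at 0.31 and 0.32 with the slope covariate over 8 and 20 libraries (adjusted p = 0.114 and 0.128) and Sdhc at 0.35 with the slope covariate over 8 libraries (adjusted p = 0.0609).

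Genes of the respiratory chain, the ribosome and the proteasome rose more often than they fell under the main scaling, in libraries that also held larger mitochondrial and ribosomal shares. Of 76 nuclear-encoded genes of the respiratory chain, 28 rose and 0 fell (median 0.49). With the length offset 24 rose and 10 fell, with the slope covariate over 8 libraries 15 rose and 20 fell (median −0.10), and without acute Gly-Low 1 17 rose. Ndufs4, of complex I, was at 1.47 ± 0.26 and Cox7a2, of complex IV, at 1.6 ± 0.30. Against acute control the median of the list was 1.67. Young control was taken as the reference partly for its mitochondrial share. The values of the mitochondrial genome genes, against either control group, are therefore a description. Of 13 proteins of the mitochondrial genome, 4 rose, with a median of 0.87, and 8 rose without young controls 2 and 4. With the slope covariate over 8 libraries 3 rose and 4 fell (median 0.04), as many as over 20. With acute control as the reference, where 46.8% of 19061 genes differed and 23.8% were higher, 13 of 13 were (median 2.04). mt-Co1, of complex IV, was at 1.29 ± 0.31. Of 79 cytosolic ribosomal proteins, 48 rose and 0 fell (median 1.11), and 43 did so with the length offset (median 0.56) and 31 with the slope covariate over 8 libraries, where 3 fell (median 0.29). Rps12 was at 2.12 ± 0.24 and Rpl5 at 1.8 ± 0.22. Many of these genes have processed copies in the genome that could share reads. Of 34 proteasome subunits, 19 rose and 0 fell (median 0.73; 17 and 2 with the offset, 13 and 1 with the slope covariate over 8 libraries). Psma2 went from 140.3 ± 26.9 to 435 ± 54.5 CPM (1.6 ± 0.20) and the ATPase Psmc6 from 129 ± 23.4 to 381 ± 44.8 CPM (1.53 ± 0.19).

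**Figure D5:**
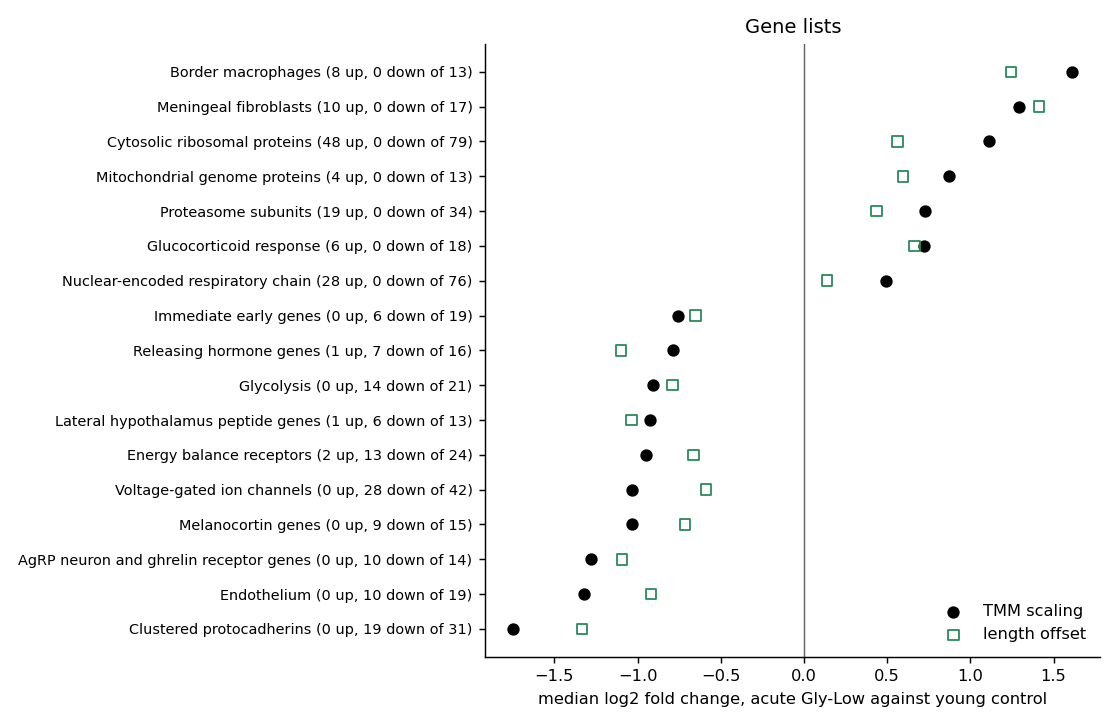
Median log2 fold change of the tested members of 17 gene lists with the TMM scaling and with the length offset, and beside each list how many members rose (up), fell (down) and were tested. The median of border macrophages is the highest and that of clustered protocadherins the lowest of these lists under TMM, and that of the respiratory chain turns below 0 with the slope covariate, which is not drawn.

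The spliceosome list moved both ways. Of 36 genes, 13 fell and 9 rose, and with the length offset 13 fell and 7 rose. Those that fell held large catalytic and scaffold proteins, such as Prpf8 (−2.28 ± 0.41), the helicase Snrnp200 (−1.74 ± 0.23) and Sf3b3 (−1.97 ± 0.17). They also held Snrpa and Snrnp70, short transcripts of the U1 particle. Snrpa had 22.8, 24, 19.5 and 21.6 CPM against 78.2, 90.6, 84 and 63.2 CPM in young control (−1.87 ± 0.18; −0.89 ± 0.16 against acute control), and Snrnp70 was at −1.32 ± 0.27, but at −0.46 with the slope covariate over 20 libraries (adjusted p = 0.256). Those that rose were small Sm and Lsm proteins and partners, such as Snrpb2 (1.48 ± 0.23), Lsm6 (0.97 ± 0.18) and Snrpd3 (0.95 ± 0.18).

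Of 26 genes of endoplasmic reticulum chaperones and the unfolded protein response, 10 fell (38.5%) and 1 rose (3.85%), beside 16% and 13.3% of all genes. Calr, calreticulin, went from 497 ± 81.9 to 153 ± 25.4 CPM (−1.73 ± 0.20), and Hspa5, the main chaperone there, was at −0.51 ± 0.15 (−0.40, adjusted p = 0.0865, with the length offset). Without single libraries the number that rose was 0 (without young control 3 or acute Gly-Low 1) to 3 (without young control 2). Of 24 heat shock genes, 7 fell (29.2%) and 0 rose, to be read beside the same shares. Among those that fell were Hsp90ab1 (−0.99 ± 0.17) and Hsph1 (−0.88 ± 0.15). The strongly inducible Hspa1a had 1.46, 0.656, 0.227 and 0.247 CPM in acute Gly-Low and 2.88, 0.117, 1.67 and 6.79 CPM in young control and did not pass (−2.14 ± 0.93, adjusted p = 0.106). Its level in young control 2 was as low as in acute Gly-Low, and without young control 2 its adjusted p was 0.016. It was at −0.45 and 0.34 with the slope covariate over 8 and 20 libraries (adjusted p = 0.822 and 0.818).

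Of 16 genes of methylglyoxal removal and deglycation, 3 rose (18.8%) and 2 fell (12.5%), near the 13.3% and 16% over all genes. With the length offset 2 rose and 5 fell, and with the slope covariate over 8 libraries 2 rose and 6 fell. Glo1, glyoxalase 1, had 255, 258, 265 and 287 CPM in acute Gly-Low and 163, 201, 175 and 117 CPM in young control. The groups did not overlap (0.67 ± 0.19, adjusted p = 0.0233; 0.88 ± 0.18 against acute control), but with the length offset it was at 0.25 (adjusted p = 0.176) and 0.34 and 0.33 with the slope covariate over 8 and 20 libraries (adjusted p = 0.116 and 0.0965), and without acute Gly-Low 4 or young control 1 its adjusted p was 0.0559 to 0.0612. Aldh1a1, an aldehyde dehydrogenase, went from 92.4 ± 12.5 to 359.9 ± 80.2 CPM (1.94 ± 0.21; 1.92 with the offset), and Glod4, a glyoxalase-domain protein, was at 1.21 ± 0.16. The annotation places 2 other genes on the same strand and 4 on the opposite strand over Glo1, and 2 other genes on the same strand and 4 on the opposite strand over Glod4. The deglycating kinase Fn3k fell (−0.61 ± 0.21, adjusted p = 0.0466), but without acute Gly-Low 4 or young control 1 or 2 its adjusted p was 0.0528 to 0.0665, which leaves 1 gene of the list lower. Of 27 genes of glutathione and NRF2, 6 rose (22.2%) and 1 fell (3.7%), while 3 fell without young controls 2 and 4. With the slope covariate over 8 libraries 5 fell. Prdx1, a peroxiredoxin, went from 264 ± 54.2 to 853 ± 122 CPM (1.66 ± 0.21), Nqo1, a quinone reductase, was at 1.41 ± 0.25, and Mgst1, a microsomal glutathione transferase, at 1.34 ± 0.27. The member that fell was the glutathione transferase Gstm1, from 292 ± 51.3 to 144 ± 19.5 CPM (−1.04 ± 0.18), and acute control lay with acute Gly-Low at 126 ± 24.3 CPM. Of 22 genes of NAD, B vitamins and lipoate, 5 rose (22.7%) and 2 fell (9.09%), beside 13.3% and 16% of all genes. Of this list 3 rose without young control 1 or 3 or acute Gly-Low 2, 3 or 4. Nampt, the rate-limiting enzyme of NAD salvage, was at 0.73 ± 0.18, Nadk2 at 1.25 ± 0.16 and the axonal Nmnat2 at −0.85 ± 0.16. With the slope covariate over 20 libraries 4 fell.

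Receptors of energy balance were more often lower. Of 24 receptors, 13 fell and 2 rose (median −0.95), and with the length offset 9 fell. Calcr, the calcitonin and amylin receptor, went from 55.4 ± 11.8 to 17.3 ± 3.06 CPM (−1.71 ± 0.22), and its partner Ramp1 rose (1.19 ± 0.26). Insr, the insulin receptor, was at −1.11 ± 0.24, but at −0.35 (adjusted p = 0.114) with the length offset and −0.45 with the slope covariate over 20 libraries (adjusted p = 0.0645). Of 18 genes of AMPK and fatty acid handling, 6 fell (33.3%) and 0 rose, beside 16% and 13.3% of all genes. With the offset 2 of the 18 fell, no larger a share than the 14.8% of all genes. The slope covariate over 8 libraries left 5 that fell and 3 that rose. Among those that fell was Cpt1c, the brain form of carnitine palmitoyltransferase (−1.39 ± 0.31), which was at −0.46 with the slope covariate over 20 libraries (adjusted p = 0.142).

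Genes of neuronal excitability and adhesion fell more often than they rose. Of 42 voltage-gated channels, 28 fell and 0 rose (median −1.03). With the length offset 15 fell (median −0.59), and with the slope covariate over 8 libraries 17 fell and 3 rose. The sodium channel Scn3a was at −1.53 ± 0.18 and the potassium channel Kcnq3 at −1.59 ± 0.26. Of 38 GABA and glutamate receptors, 19 fell and 1 rose, and 14 fell with the offset. Grin2b, an NMDA receptor subunit, went from 84.9 ± 50.1 to 14.8 ± 4.32 CPM (−2.52 ± 0.37), Gabrq, a GABA receptor subunit of the hypothalamus, was at −1.55 ± 0.16, and Gabrg1, the member that rose, at 1.23 ± 0.23. Of 31 clustered protocadherins, which label single neurons, 19 fell and 0 rose (median −1.75), with 13 falling under the offset and 6 with the slope covariate over 8 libraries. Pcdhgc4 was at −2.41 ± 0.33. Many of these genes share their last exons, and reads from those exons could not be told apart among them.

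Of 10 GABAergic markers, 7 fell and 0 rose, and their summed level was 572 to 641 CPM in acute Gly-Low against 1099.9 to 1493 CPM in young control. With the slope covariate over 20 libraries 4 fell. In bulk tissue, fewer cells of a type and less RNA per cell cannot be told apart, here and in the cell types below. Of 11 markers of the ventromedial nucleus, 7 fell and 1 rose, among them Fezf1 (−1.49 ± 0.20) and Nr5a1 (−2.23 ± 0.55), which specify it, while the summed level overlapped between the groups. Nr5a1 was at −0.92 and −0.85 with the slope covariate over 8 and 20 libraries (adjusted p = 0.123 and 0.106). Of 25 imprinted genes, many of them active in hypothalamic neurons, 11 fell and 3 rose, with Plagl1 (−2.1 ± 0.21), Asb4 (−1.45 ± 0.17) and Peg10 (−1.93 ± 0.31) lower and Cdkn1c (1.36 ± 0.35) higher. For Cdkn1c, without acute Gly-Low 1 or 2 or young control 1 or 3 its adjusted p was 0.0536 to 0.0894.

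Endothelial markers fell more often than they rose. Of 19 endothelial markers, 10 fell and 0 rose (median −1.32). Cldn5, the tight junction protein of the blood-brain barrier, had 7.18, 8.85, 4.55 and 4.01 CPM in acute Gly-Low and 25.4, 30.6, 28.3 and 18.1 CPM in young control. No acute Gly-Low library reached the level of a young control (−2.09 ± 0.30, adjusted p = 9.69e-04; −1.38 ± 0.37 against acute control). Pecam1 (−1.76 ± 0.27), Tek (−1.77 ± 0.29) and Flt1 (−1.62 ± 0.35), receptors and adhesion molecules of vessels, fell as well, though Flt1 was at −0.94 and −0.62 with the slope covariate over 8 and 20 libraries (adjusted p = 0.0615 and 0.199). Other defining markers did not pass: Ly6c1 was at −0.14 ± 0.23 (adjusted p = 0.681, or −0.69 and 0.0257 with the length offset) and Slco1a4 at −0.05 ± 0.22 (adjusted p = 0.883). Nor did Itm2a, at 0.50 ± 0.21 (adjusted p = 0.0973, or 0.0336 without young control 2). It was at 0.086 and 0.065 with the slope covariate over 8 and 20 libraries (adjusted p = 0.727 and 0.804). The summed level of the list overlapped, with 952 to 1041 CPM in acute Gly-Low and 982 to 1292 CPM in young control.

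Genes of the brain's borders and of blood rose more often than they fell. Of 17 meningeal fibroblast markers, 10 rose and 0 fell (median 1.29). That count rested on single libraries: 1 rose without young control 1 or acute Gly-Low 1, 2 or 4, 5 without acute Gly-Low 3, and 2 with the slope covariate over 8 libraries, while the median stayed at 0.95 to 1.57 without any 1 library. Aldh1a2, which makes retinoic acid, had 71.5, 47.9, 29 and 50.6 CPM in acute Gly-Low and 7.71, 20.7, 19.2 and 9.3 CPM in young control (1.77 ± 0.38). Dcn, the proteoglycan decorin, had 113, 78.9, 51 and 71.1 CPM against 20.3, 41.1, 57.6 and 14.4 CPM, and these groups overlapped (1.2 ± 0.41, adjusted p = 0.049), and without acute Gly-Low 1, 2, 3 or 4 or young control 1 its adjusted p was 0.0594 to 0.17. It was at 0.31 and 0.60 with the slope covariate over 8 and 20 libraries (adjusted p = 0.534 and 0.177). The summed level of the list was 2207 to 6115 CPM in acute Gly-Low and 739 to 4334 CPM in young control. Of 13 border macrophage markers, 8 rose and 0 fell (median 1.61), and 4 rose without acute Gly-Low 1 and 5 without acute Gly-Low 2 or young control 1, and 4 with the slope covariate over 8 libraries. Lyve1, a hyaluronan receptor of these cells, had 6.45, 7.27, 2.27 and 4.81 CPM against 0.627, 0.292, 1.13 and 0.591 CPM (2.94 ± 0.49), and F13a1, a clotting factor subunit, was at 1.81 ± 0.35. Of 8 tested erythrocyte genes, 5 rose. Hbb-bs had 369, 962, 362 and 450.3 CPM against 37.4, 69.4, 188 and 31.8 CPM, and Alas2, the erythroid enzyme of haem synthesis, was at 2.19 ± 0.47. The part of blood and meninges kept with the tissue in the differences of other genes was not tested.

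The shares of glial markers that rose or fell are to be read beside the 13.3% and 16% of all genes. Of the glia, 5 of 18 markers of mature oligodendrocytes rose and 3 fell, and 8 rose without young control 2, and 1 fell with the length offset. Mobp (1.45 ± 0.17), Ermn (1.31 ± 0.21) and Aspa (1.68 ± 0.27) were higher and Mag, another myelin protein, lower (−1.53 ± 0.26; −0.79 with the slope covariate over 20 libraries (adjusted p = 0.0516)). Of 17 astrocyte markers, 3 rose and 3 fell, 17.6% each, near those shares (6 and 5 without young controls 2 and 4; 6 rose without young control 4), with S100b at 1.93 ± 0.22 and the water channel Aqp4 at 0.70 ± 0.16, or 0.42 with the slope covariate over 20 libraries (adjusted p = 0.111). Gfap had 417, 205, 209.7 and 310.4 CPM in acute Gly-Low and 75.5, 30.3, 78 and 245 CPM in young control and did not pass (1.42 ± 0.51, adjusted p = 0.0558; 0.0398 with the length offset). Young control 4 lay among the acute Gly-Low libraries, and without young control 4 its adjusted p was 1.93e-04. Of 18 microglia markers, 6 rose and 2 fell, and 3 rose without acute Gly-Low 1. Gpr34 (1.69 ± 0.31), Siglech (1.21 ± 0.22) and Trem2 (0.93 ± 0.24) were higher, and the growth factor receptor Csf1r lower (−1.51 ± 0.29). For Trem2, without acute Gly-Low 1 or 4 its adjusted p was 0.0556 to 0.0587, and it was at 0.50 with the slope covariate over 8 libraries (adjusted p = 0.116). Of 15 markers of tanycytes and ependyma, 3 rose, Dio2, Rarres2 (1.33 ± 0.30) and Ccdc153 (1.32 ± 0.36), and 5 rose without young control 2. For Ccdc153, without acute Gly-Low 1 or 2 or young control 1 its adjusted p was 0.0536 to 0.0703, and it was at 0.43 with the slope covariate over 8 libraries (adjusted p = 0.142).

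The change of reference was tested as the difference between acute control and young control in a fit on all 20 libraries. There 1009 of 19061 genes (5.29%) differed, 176 higher and 833 (4.37%) lower in acute control. That count rested on single libraries: it was 0 without young control 2 or without young control 3 (edgeR; at an unadjusted p under 0.05, 2763 and 2936 genes), 182 without young control 1, 3957 without young control 4, 71 to 694 without single acute controls, and 3 in a fit on the 9 libraries of these groups alone. With the length offset it was 239. The 5 genes with the smallest p were Npy, Gstm1, Snrpa, Trac and Gm9843, the last a gene model with 23.2 ± 14 CPM in young control and 3.54 ± 0.836 CPM in acute control. For Gstm1 the difference was −1.22 ± 0.17 and for Snrpa −0.96 ± 0.15. The comparisons with young control and with acute control share the acute Gly-Low libraries, so their likeness for other genes is no independent support. With the mean of both control groups as the reference, an alternative chosen after the data were seen, Rbm3 was at 2.47, Fkbp5 at 1.57, Atp1b2 at −2.11, Agrp at 1.52 (adjusted p = 8.3e-05), Npy at −0.89 (adjusted p = 0.0679) and Cartpt at −0.46 (adjusted p = 0.0959).

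The other comparison of this diet with a control in the series, old Gly-Low (3 libraries) against old control (4 libraries), both 25 months old after 5 months of diet, shares no library with this one. By edgeR it called 0 of 19061 genes, with 869 at an unadjusted p under 0.05. Of the 2229 genes that rose here, 1690 were lower in old Gly-Low than in old control. Of the 2667 that fell, 1864 were higher there. The medians of the genes that rose and fell were −0.18 and 0.13 there, beside 0.0078 over all 19061 genes. Length slopes were 0.29, 0.079 and 0.16 in old Gly-Low and 0.16, 0.044, −0.20 and 0.15 in old controls 1 to 4. Old control 3 also held a mitochondrial share of 15.8%. The part of these slopes and shares in the counts was not tested. A test of the difference between the acute and the old differences passed for 4380 of 19061 genes (23%). The count was 3164 with the length offset and 3001 to 5375 without single libraries. Among the genes with the smallest p in that test were Arhgap36, Med23, Aqr and Tm9sf4, which fell here. In the old arm they were at 0.20 ± 0.14, −0.01 ± 0.13, 0.17 ± 0.14 and 0.22 ± 0.14. Rbm3 was at 0.02 ± 0.25 there, and its difference of differences was 2.76 ± 0.35 (adjusted p = 5.29e-05). Npy was at 0.68 ± 0.47 there (difference −2.99 ± 0.65, adjusted p = 0.00295) and Ghsr at 0.62 ± 0.27 (difference −1.84 ± 0.37, adjusted p = 0.00192). Rbm3 was named for its acute difference, which is part of this test, so its result here is no independent support. Age and the length of the diet differ between these arms too.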

How the data were processed

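Bulk hypothalamus RNA was sequenced as poly-A libraries without strand information, per the labels' protocols. The authors deposited 1 table of raw counts per gene, made from reads aligned to GRCm38 with HISAT2 2.0.5 and counted with featureCounts 1.5.0-p3, per the submitters' processing notes, which also name DESeq2 1.20.0. The table was used as deposited: 54532 genes, of which 54495 matched GENCODE M21, the source of gene names, coordinates and lengths.

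The 8 libraries of acute Gly-Low and young control, grouped by their labels, were fitted with edgeR 4.0.16 (R 4.3.3) by the quasi-likelihood test, with filterByExpr, TMM scaling and Benjamini-Hochberg adjustment over all 16701 genes tested. Printed CPM use TMM factors of all 20 libraries. Differences against acute control, in the old arm and between arms came from 1 fit on all 20 libraries in 5 groups. DESeq2 1.42.0, limma 3.58.1 and the other alternatives are given in the closing section. The length offset removed each library's trend over 40 bins of transcript length. The length slope is the regression, on log2 length, of a library's log2 CPM minus each gene's mean over all 20 libraries. Library shares were compared with exact permutation tests (scipy 1.17.1). The fits were tested on simulated data.

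Genes were named by rule: protein-coding genes past the threshold with the 8 smallest p and the 6 largest changes in each direction (at least 5 CPM, groups not overlapping), up to 4 per gene list by p, a set of feeding, clock and stress genes, and the 5 smallest p of the change of reference and of the comparison of arms. Some genes that the rule names are not reported here. Genes beyond the rule were added to describe their lists and were chosen after their values were seen. The members and gene lists were chosen with earlier results of these data known. Lists are described by counts and medians, with no test of a list. They are to be read beside all genes tested, of which 13.3% rose and 16% fell (median −0.05). Same-numbered replicates did not deviate together, so no pairing was used. Total counts were 15848372 to 24557277 in the 8 libraries compared and at most 27399753 in the other 12.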

Additional observations from a re-analysis of the deposited data

Results flagged for a closer look

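In acute Gly-Low, library 3 stood apart from the other 3 in Ghsr, with 9.77 CPM, and library 2 in Hbb-bs, with 962 CPM, and in the share of the haemoglobin genes, with 0.122% of counts. One acute Gly-Low library had more genes at 1 CPM or above than the rest, with 14806. In young control, library 1 was low in Ghsr, with 9.97 CPM, and library 4 was high in Kif5b, with 357 CPM. These were 6 of 120 groups of 4 libraries examined for a library far from the others, and chance marks about 1 in 20.

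The acute difference and the old difference (old Gly-Low minus old control) were not alike for the 7 genes followed here. The test was of the difference itself on the log2 scale. Arhgap36, Med23, Aqr and Tm9sf4 were among the genes with the smallest p in this same test. Of all genes that rose in the acute comparison it passed for 76.5%, and of those that fell for 72.1%. Those genes, Rbm3 among them, were picked by the acute difference, which is itself part of this test. High shares were thus partly fixed in advance, and they are a description, not support. Rbm3 was higher in the acute comparison by 2.76. The difference was −2.99 for Npy, −2.71 for Arhgap36, −2.19 for Aqr, −2.17 for Tm9sf4, −2.16 for Med23 and −1.84 for Ghsr. Each passed under every alternative of that test, including each library of the 4 groups left out in turn.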

How the results depend on the processing

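The count of 4896 genes was 7938 with limma-voom, 8546 with the mean of both control groups as the reference, and 3574 to 6414 without single libraries, and under the other alternatives it stayed within 1.5 times. With the replicate number as a block it was 3714, but the numbers did not pair the samples: correlations of same-numbered libraries ran from −0.101 to 0.0403, and 1 of 4 acute Gly-Low and 0 of 4 young control libraries correlated best with their own number. Under all 24 settings 2215 genes (965 higher, 1250 lower) were called in the same direction. The number of lists with at least 50% of members called in 1 direction was 17, and 31 with limma-voom, 9 and 8 with the slope covariate over 8 and 20 libraries, 11 with the replicate block, 29 with both control groups, and 10 to 23 without single libraries. The count for acute control against young control, 1009, was 1746 with DESeq2, 239 with the length offset, 3 in the fit on 9 libraries and 0 to 3957 without single libraries. As shares of the counts outside the mitochondrial genome, the difference in the ribosomal share was 4.43 percentage points (3.19 of all counts) and that of the top 10 genes 0.859.

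Of 141 genes described as risen or fallen, 106 passed under every alternative and none turned sign. Of genes that did not pass, some turned sign. Avp was at −0.26 with limma-voom, −0.39 with the length offset, −0.38 with the slope covariate over 8 libraries, and ran from −0.26 without acute Gly-Low 1 to 0.40 without acute Gly-Low 4. Oxt ran from −0.55 to 0.10 without single libraries and was at 0.58 against both control groups. Slco1a4 was at 0.056 with the offset and ran from −0.23 to 0.036 without single libraries. The values were −0.17 for Dbp with the offset, 0.34 for Hspa1a with the slope covariate over 20 libraries and 0.29 for Ly6c1 against both control groups. The respiratory chain median was −0.10 and −0.041 with the slope covariate over 8 and 20 libraries. The median of all genes moved from −0.05 to 0.13 with that covariate over 20 libraries and to −0.19 with the filter at 1 CPM. The causes of these shifts were not tested.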
